A study of Mus musculus with 2 samples.

Results

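Reads from immunoprecipitated Scl chromatin were examined across Runx1, 1 of 49997 genes in the RefSeq table, on mouse chromosome 16. The members were set by gene name and span: all distinct reads from 92.55 to 92.98 Mb of build mm9, a span that holds the gene, on the minus strand from near 92.602 to near 92.826 Mb, with flanks on both sides. Of the 2868 enriched regions called over the genome in sample 1, 5 lay in this span, and of the 1010 called in sample 2, 3 did. The cells were HPC-7, a mouse line of early blood progenitors that the labels describe as made from embryonic stem cells, kept in 10% conditioned medium with mouse stem cell factor. No treatment or genotype besides the line is given, and both samples share the line, the antibody target and 1 immunoprecipitation, from chromatin fixed in 0.4% formaldehyde and sheared to 200 to 500 bp. The DNA was split into 3 portions: those read in lanes 7 and 8 form sample 1, and the one read at another site forms sample 2. No control library was used here, so each window was set against the reads of the 10 kb around it, its own reads included. The samples are technical repeats of a single cell line and a single immunoprecipitation, and every interval and p-value covers counting error only. Reads of precipitated DNA give no expression levels, so the line was not checked against marker genes.

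Runx1 is the DNA-binding subunit of core binding factor and is needed for blood stem cells to arise in the embryo. It is transcribed from a distal and a proximal promoter, and the long intron between them is known to hold an enhancer active in blood stem and progenitor cells. Scl (Tal1), a basic helix-loop-helix factor, works in complexes with an E-protein, Lmo2, Ldb1 and a GATA factor, so its sites often carry an E-box or a GATA motif.

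Sample 1 held 5632832 distinct reads and sample 2 held 4151142, where distinct means that each chromosome, strand and 5′ end was counted once. An average 200 bp window held 0.593 reads in sample 1 and 0.437 in sample 2. Distances below run from the distal start at 92.826 Mb, a position rounded to the nearest kb. In RefSeq's GRCm38.p6 the proximal start lies 129 kb downstream of the distal one. The 4 regions downstream of the distal start, of which the farthest lay at 110 kb, therefore fall between both starts unless the builds differ by many kb there. Exons and introns of mm8 or mm9 were not analysed here.

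The sequences under the regions that the results turn on are shown first. They are the mm8 genome bases under sample 2 reads, plus strand, with the mismatches listed per read set back to the genome's base, and gaps mark bases without a read. Capitals mark motifs searched on both strands: the E-box CANNTG, a GATA motif (GATA after A or T and before A or G), an ETS core (GGAA after A or C and before A or G) and a RUNX core (TGTGGT or TGCGGT). The form CAGCTG, which is also counted as CANNTG, and CANNTG followed after 7 to 9 bases by the GATA motif, the composite described for Scl complexes, were searched as well. Of the 3 covered stretches of the region 24 kb downstream, the strongest of the locus, those with a match are printed, at chr16:92690513-92690628 and chr16:92690631-92690737, of 116 and 107 bases. The other, of 54 bases, has 0 matches.
24 kb region, left stretch: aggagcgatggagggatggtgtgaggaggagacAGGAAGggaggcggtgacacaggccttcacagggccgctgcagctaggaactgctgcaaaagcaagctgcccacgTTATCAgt
24 kb region, right stretch: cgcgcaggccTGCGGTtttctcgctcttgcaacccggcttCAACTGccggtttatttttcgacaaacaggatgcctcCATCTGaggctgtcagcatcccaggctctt
Besides an ETS core, AGGAAG (34.6% of promoter stretches), the left stretch has near its end a GATA motif on the minus strand (printed TTATCA), whose centre lay 26 bp left of the sample 2 summit (listed as -26), and the RUNX core TGCGGT lay at -6. The E-boxes CAACTG and CATCTG lay 24 and 61 bp to the right. In stretches of the same length taken just before the start of 32851 RefSeq promoters, the GATA motif was present in 12.3%, the RUNX core in 8.18% and CANNTG in 36.7%. Base composition was not matched between these regions and the promoters. Each share is for a single stretch, mostly one printed because it holds a match, and not for all covered bases of a region. The shares here and below therefore do not measure how often a motif arises by chance.

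The region 110 kb downstream is shown because it was the next strongest in sample 1. Of its 5 covered stretches, those nearest to the summit are printed, at chr16:92604529-92604584 and chr16:92604615-92604670, each of 56 bases.
110 kb region, left stretch: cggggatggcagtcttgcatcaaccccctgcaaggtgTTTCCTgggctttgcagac
110 kb region, right stretch: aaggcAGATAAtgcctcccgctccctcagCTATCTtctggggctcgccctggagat
The right stretch holds GATA motifs as AGATAA and, on the minus strand, CTATCT, with centres 23 and 47 bp right of the sample 2 summit. Of promoter stretches of that length, 5.50% hold a GATA motif. The left stretch holds an ETS core on the minus strand, TTTCCT, found in 19.6% of promoter stretches. Of the stretches not printed, 1 holds an E-box, CAAATG, 173 bp right of the summit.

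The region 4 kb downstream is the one nearest to the distal start, and 1 stretch of 57 bases, at chr16:92711146-92711202, carries its motifs near the summit.
4 kb region: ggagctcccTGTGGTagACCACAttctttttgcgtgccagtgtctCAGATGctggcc
It holds a RUNX core on each strand, at 23 and 31 bp from the placed summit, and the E-box CAGATG at 59 bp. Of promoter stretches of the same length, 4.18% hold a RUNX core and 20.1% an E-box. A further stretch of this region, 33 bases long, holds the GATA motif TGATAA at 193 bp from the summit.

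The region 58 kb upstream is the one outside the gene, and its stretch of 53 bases at chr16:92772344-92772396 holds its E-box nearest to the summit.
58 kb upstream region: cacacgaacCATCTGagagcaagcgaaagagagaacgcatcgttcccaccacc
The E-box CATCTG lay 94 bp left of the sample 2 summit (listed as -94), and 18.7% of promoter stretches of this length hold an E-box. For comparison, RefSeq's distal promoter, from which the distances run, is given on the minus strand for GRCm38.p6 (chr16:92826025-92826324, 250 bases before to 50 after the start).
Distal promoter: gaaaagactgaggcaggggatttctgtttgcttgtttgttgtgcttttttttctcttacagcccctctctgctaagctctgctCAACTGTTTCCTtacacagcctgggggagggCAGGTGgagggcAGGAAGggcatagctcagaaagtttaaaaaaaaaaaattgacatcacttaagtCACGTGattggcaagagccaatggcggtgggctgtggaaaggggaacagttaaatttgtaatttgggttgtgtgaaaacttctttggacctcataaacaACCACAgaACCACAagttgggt
The distal promoter has 3 E-boxes, 2 ETS cores and 2 RUNX cores but 0 GATA matches, and the motifs occur in 72.3%, 64.7%, 22.4% and 29.8% of the 32851 promoters.

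Over the 5 regions, the covered bases within 100 bp of the summits in mm8 held 3 GATA motifs, 3 RUNX cores, 4 E-boxes and 1 ETS core. Within 50 bp there were 3 GATA motifs, 3 RUNX cores, 1 E-box and 1 ETS core. For the 4 kb and 76 kb regions, which were not called in sample 2, the summit is that of sample 1 placed in mm8. At the 110 kb region the sample 2 summit was used, and the placed sample 1 summit lay 36 bp farther from both GATA motifs. CAGCTG and the composite had 0 matches there. Reads covered 277 of the bases within 200 bp of the summit at the 24 kb region, 243 at the 4 kb region, 216 at the 110 kb region, 194 at the 58 kb upstream region and 128 at the 76 kb region. Each such span is 401 bases long, and the summit itself lay in an uncovered gap at every region but that at 24 kb. A motif in an uncovered base would be missed, so the counts near the summits, those of 0 included, describe the covered bases only. A match is a description of the letters alone.

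Enriched windows lay in a few narrow places of the locus, while most reads lay outside them. Within the gene, 948 of 1038 distinct reads of sample 1 and 638 of 684 of sample 2 were outside the regions. Of the 4186 windows of 200 bp with reads in sample 1, 17 passed (0.406%), where a pass needs a one-sided exact Poisson test with an adjusted p under 0.01 over every window of the genome that held a read, and at least 5-fold over the surrounding 10 kb. Over the genome 0.0472% of windows with reads passed in sample 1. In sample 2, 8 of 3464 windows of the locus passed (0.231%), against 0.0262% over the genome. Called regions, which also need at least 20% of their reads on each strand, numbered 5 in sample 1 and 3 in sample 2, and all 3 of sample 2 matched regions of sample 1.

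**Figure D1:**
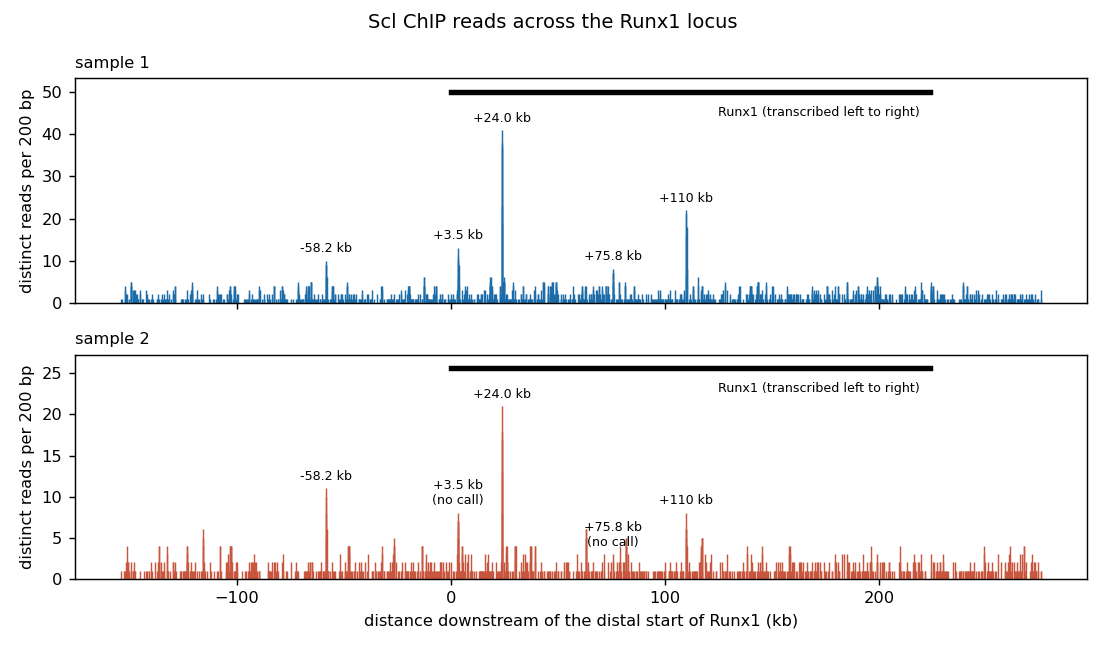
Distinct reads per 200 bp window (y axis) against distance downstream of the distal start of Runx1 in kb (x axis), sample 1 above and sample 2 below; all windows on a 200 bp grid and every other window with at least 4 reads are drawn, and the black bar is the gene. The tallest window is at 24 kb in both samples, with 41 reads in sample 1 and 21 in sample 2.

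The region 24 kb downstream of the distal start had the most reads of the locus in both samples. In mm9 its edges were 92801801 and 92802200 and its summit 92802000. In mm8 its edges were 92690451 and 92690800 and its summit 92690650. Within 200 bp of the summit there were 42 distinct reads in sample 1, with an exact Poisson 95% interval of 30.3 to 56.8, which stands in brackets for other counts. There were 21 in sample 2 (13.0 to 32.1). The best window held 41 reads where 1.72 were expected in sample 1, an enrichment of 23.8-fold (adjusted p = 2.76e-36, exact Poisson test). In sample 2 it held 21 reads where 0.960 were expected, 21.9-fold (adjusted p = 9.17e-17, exact Poisson test). The mean over these technical repeats was 22.9-fold. The expected counts include the region's own reads, which lowers the fold most where a region holds many reads. Against the 10 kb without the 1 kb each side the fold was 54.7 in sample 1 and 38.2 in sample 2. The best window of any other region of the locus held 22 reads in sample 1 and 11 in sample 2. Its GATA motif, RUNX core and E-boxes are those printed above. Among all called regions it held rank 58 of 2868 by reads in sample 1 and rank 128 of 1010 in sample 2. Counting itself, 3 and 14 regions had that number of reads. On chromosome 16 alone it was at rank 1 of 85 and rank 2 of 30.

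The region 110 kb downstream came next in sample 1 and was weaker in sample 2. It lay at 92715801 to 92716150 in mm9, with 24 reads within 200 bp of the summit (15.4 to 35.7) and 22 in the best window, 19.3-fold (adjusted p = 1.28e-16, exact Poisson test). In mm8 it lay at 92604501 to 92604700, with 9 reads (4.12 to 17.1) and 8 in the best window, 12.5-fold (adjusted p = 0.00178, exact Poisson test). This region carries the pair of GATA motifs 23 and 47 bp right of the sample 2 summit. The sample 1 summit, placed in mm8, lay 36 bp left of that summit and so farther from both motifs. It held rank 214 of 2868 by reads in sample 1 and rank 612 of 1010 in sample 2.

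Close to the distal promoter, the region at 3.50 kb was called in sample 1 only. It spanned 92822301 to 92822650 in mm9 and had 15 reads within 200 bp of its summit (8.40 to 24.7), with 13 in the best window, 11.4-fold (adjusted p = 2.29e-06, exact Poisson test). At the matching place of sample 2, around 92711135 in mm8, there were 11 reads (5.49 to 19.7). Its best window held 8 at 9.09-fold and just missed the threshold of 0.01 (adjusted p = 0.0133, exact Poisson test). Sample 1 held 57.7% of the reads of both samples at this place (36.9 to 76.6) and 57.6% of all distinct reads, so the samples fell on opposite sides of the threshold without a difference in their share of reads that these counts could show.

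Upstream of the gene, 1 region stood 58.2 kb from the distal start and was called in both samples. Sample 1 had 12 reads within 200 bp of the summit (6.20 to 21) in a region from 92884001 to 92884300 of mm9, and its best window of 10 reads was enriched 11.1-fold (adjusted p = 2.10e-04, exact Poisson test). Sample 2 had 11 reads (5.49 to 19.7) in a region from 92772301 to 92772600 of mm8, all 11 of them in the best window, 16.7-fold (adjusted p = 1.23e-06, exact Poisson test). By reads in the best window it was the second region of the locus in sample 2 and the fourth in sample 1, although the intervals of the weaker regions overlap in each sample. The region was not called in lane 7 alone (22.2-fold, adjusted p = 0.0546, exact Poisson test) or in lane 8 alone (8.57-fold, adjusted p = 0.0699, exact Poisson test).

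The weakest call was a region 75.8 kb downstream, from 92750101 to 92750300 in mm9. It had 9 reads in sample 1 (4.12 to 17.1) and 8 in the best window, 8.89-fold, just inside the threshold (adjusted p = 0.00971, exact Poisson test). Sample 2 had 5 reads at the matching place (1.62 to 11.7) and 4.69-fold, which did not pass (adjusted p = 0.507, exact Poisson test). The stretches read there hold an E-box, CATTTG, 160 bp from the placed summit and 0 GATA matches, but the placed summit itself lies in a gap between them. It was not called in either lane alone.

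**Figure D2:**
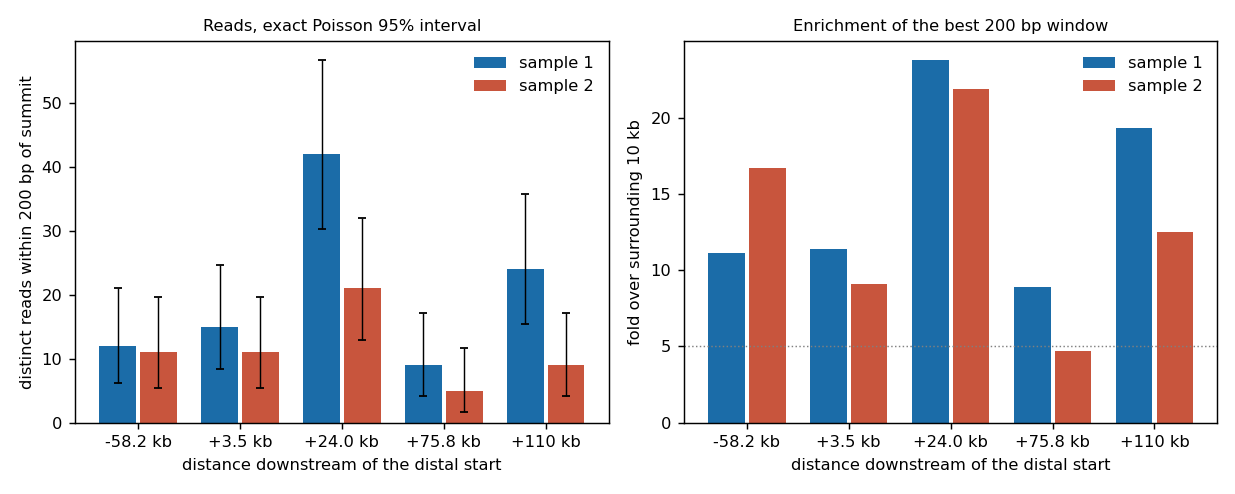
Left, distinct reads within 200 bp of the summit of each Runx1 region with exact Poisson 95% intervals; right, fold of the best 200 bp window over the surrounding 10 kb, with the 5-fold limit dotted; regions are ordered by distance from the distal start, sample 1 blue and sample 2 red. The region at 24 kb has 42 and 21 reads, and the one at 75.8 kb has 9 and 5.

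At each region the median plus-strand end lay left of the median minus-strand end, as in fragments sheared around a point, although single ends lay on the other side of the summit. Ends were moved by strand before calling, and a call needs reads on each strand. The calling thus favours this order, which is no separate support for the regions. With reads not moved, the 76 kb region in sample 1 and the 58 kb upstream and 110 kb regions in sample 2 were no longer called. Over the genome, pairs of plus and minus ends were most frequent at a lag of 119 bp in each sample, which was taken as the fragment length. That is below the shear range of 200 to 500 bp. At 140 bp the 76 kb region in sample 1 (adjusted p = 0.0380, exact Poisson test) was not called. Nor was the 110 kb region in sample 2 (adjusted p = 0.0159, exact Poisson test). Within 300 bp of the sample 1 summit of the 24 kb region, 18 of 20 plus ends lay left and 23 of 23 minus ends right in sample 1, and 7 of 7 and 13 of 14 in sample 2. At the 58 kb upstream region in sample 1 this held for 5 of 8 plus ends and 3 of 5 minus ends. At the 24 kb region the median minus end lay 125.5 bp to the right of the median plus end in sample 1 and 164.5 bp in sample 2. Over the 5 regions and both samples this distance ran from 90.0 to 212.0 bp, and it was above 0 at each. The lowest value belonged to the 110 kb region in sample 1 and the highest to the 58 kb upstream region in sample 2.

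**Figure D3:**
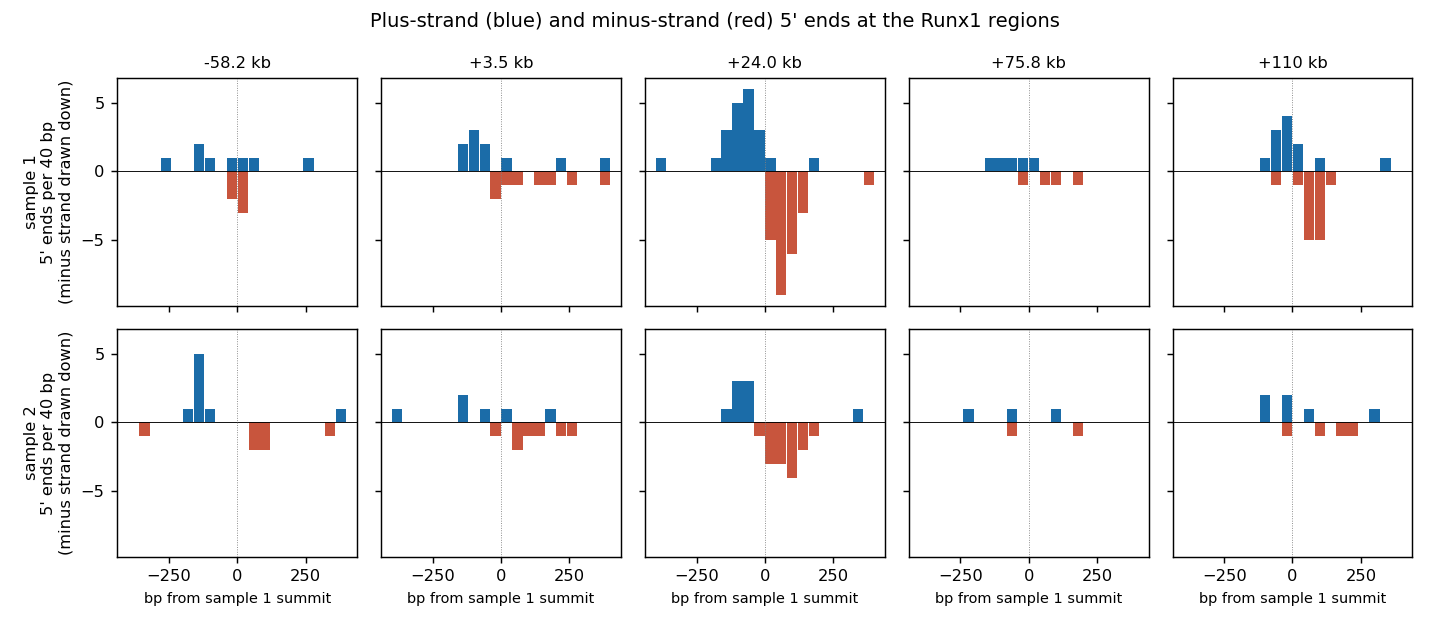
Numbers of 5′ ends per 40 bp (y axis, plus strand blue and upward, minus strand red and downward) against bp from the sample 1 summit (x axis) for the 5 Runx1 regions, sample 1 above and sample 2 below. At the region at 24 kb most plus-strand ends lie left and most minus-strand ends right of the summit, with 125.5 and 164.5 bp between the medians.

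The regions were paired between the builds by the offset at which read ends of both samples coincide. At the 24 kb and 4 kb regions this offset, mm9 less mm8, was 111365 bp. It had 18 and 13 coincident ends within 25 kb, against 10 and 8 for the next best offset. At the 58 kb upstream region it was 111705 bp with 13 ends, against 4 for the next. At the 76 kb and 110 kb regions the best offset had only 4 coincident ends against 3 and 4 for the next, so the nearest accepted offsets, 111365 and 111386 bp, were taken, and their placement is less sure. Once placed, the summits of the regions called in both samples lay at most 45 bp apart.

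The share of reads that each library gave to the regions was set against its share of all reads in 10 two-sided exact binomial tests, and none had a p under 0.05, before or after Benjamini-Hochberg adjustment. At the 24 kb region 66.7% of the reads came from sample 1 (exact 95% interval 53.7 to 78.0), against 57.6% of all distinct reads (exact binomial p = 0.162, two-sided). The lowest p between the samples was at the 110 kb region, where 24 of the reads came from sample 1 and 9 from sample 2, or 72.7% (54.5 to 86.7, exact binomial p = 0.0812). Lane 8, which was given more DNA, had 35 distinct reads at the 24 kb region and lane 7 had 9, so lane 8 held 79.5% (64.7 to 90.2) against 71.4% over the genome (exact binomial p = 0.316). With these counts, differences within those intervals could not be seen. Few ends recurred: 6 of the 102 distinct ends of sample 1 at the 5 regions, and of the 57 of sample 2, were at the same base and strand in the other sample, 4 of them at the 24 kb region. The offset between the builds was chosen for the most coincident ends nearby, those at the regions included, so this count is no separate support. Between the lanes 2 ends were the same at the 24 kb region, 2 at the 110 kb region and 0 at the other regions.

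No enrichment was detected at the distal promoter of Runx1, and reads at the proximal one were counted by sequence in sample 2 only. The rounded distal start, with 1 kb each side, held in sample 1 8 distinct reads, or 4 per kb (exact Poisson 95% interval 1.73 to 7.88), against 2.96 over the genome. Sample 2 had 5, or 2.50 per kb (0.812 to 5.83), against 2.18. By sequence, 0 of the sample 2 reads lay wholly inside RefSeq's 300 bases at the distal start and 0 inside those at the proximal start, where the genome average gives 0.588 in each. A count of 0 allows up to 3, which would be above the 5-fold limit of a call, so these counts do not limit enrichment to below a call. The proximal promoter was not counted on its own in sample 1, because its place in mm9 was not set. The window scan covered that part of the locus, near 129 kb downstream, and called no region there. In sample 1 the windows at 127.95 and 128.90 kb held 5 and 3 reads, at 7.81-fold and 4.84-fold, and neither passed.

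The gene as a whole was read more densely than the genome average. From 92.602 to 92.826 Mb sample 1 had 1038 distinct reads, or 4.63 per kb (4.36 to 4.92), 1.56-fold over the genome average, and sample 2 had 684, or 3.05 per kb (2.83 to 3.29), 1.40-fold. With the 4 regions of the gene left out, 948 reads remained in sample 1, or 4.26 per kb (4 to 4.54), which is 1.44-fold over the genome average. In sample 2 638 remained, or 2.87 per kb (2.65 to 3.10), 1.31-fold. Outside the regions the flank 5′ of the gene had 3.48 reads per kb in sample 1 (3.19 to 3.78) and 2.69 in sample 2 (2.44 to 2.97). The flank 3′ of it had 3.71 (3.21 to 4.27) and 3.06 (2.60 to 3.57). Outside the regions the interval of the gene therefore lay above that of the 5′ flank in sample 1, and it overlapped that of the 3′ flank in sample 1 and those of both flanks in sample 2. How far base composition or uniquely placed sequence sets these densities was not tested.

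No other place of the locus was called in either sample. The best remaining window of sample 1, 12.4 kb upstream of the distal start, had 6 reads at 7.89-fold (adjusted p = 0.0855, exact Poisson test). That of sample 2, 116 kb upstream, had 6 reads at 13.0-fold (adjusted p = 0.0210, exact Poisson test). Of the remaining windows with reads, 11 of 4122 in sample 1 and 10 of 3399 in sample 2 had an unadjusted p under 0.001, and no further place away from the regions had such a window in both samples.

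**Figure D4:**
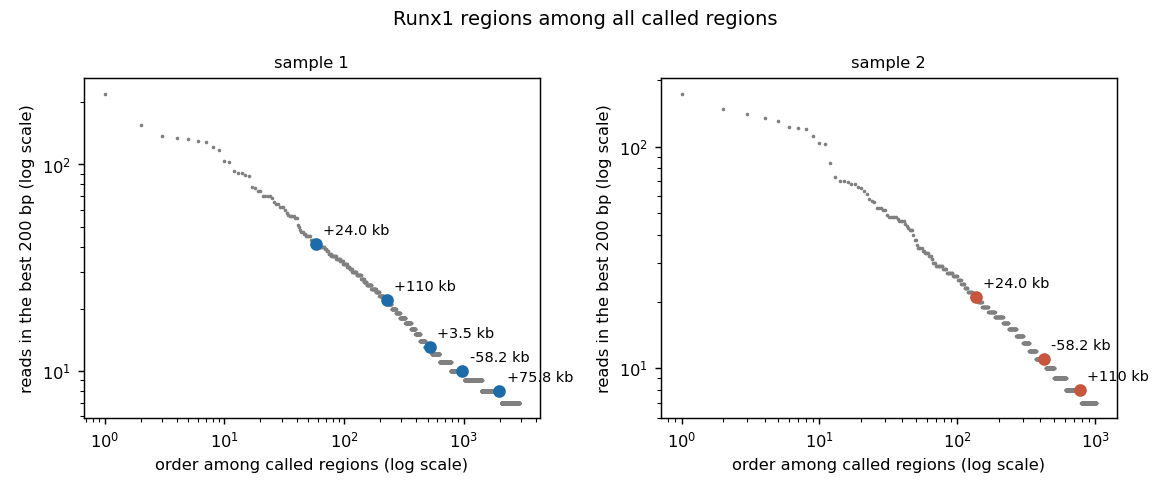
Reads in the best 200 bp window (y axis, log scale) against order among all called regions (x axis, log scale), with the Runx1 regions coloured; sample 1 left, sample 2 right. The region at 24 kb lies near the top with 41 and 21 reads, while the median called region has 8 reads in sample 1 and 9 in sample 2.

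Set among all called regions, the Runx1 regions lay on both sides of the median. The median called region had 8 reads in its best window and 11.8-fold in sample 1, and 9 reads and 14.7-fold in sample 2. In sample 1 the 24 kb, 110 kb, 4 kb and 58 kb upstream regions were above that median by reads and the 76 kb region was at it. By fold only the 24 kb and 110 kb regions were above the median there, and the 4 kb (11.4-fold), 58 kb upstream (11.1-fold) and 76 kb (8.89-fold) regions were below it. In sample 2 the 24 kb and 58 kb upstream regions were above the median and the 110 kb region, with 8 reads, was below it, by fold as well as by reads.

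Of these regions, only that at 24 kb was called under each of 15 alternative settings in sample 1 and 13 in sample 2. Its fold ranged from 12.5 to 69.1 in sample 1 and from 10.9 to 48.1 in sample 2. The 110 kb region was called under 14 of 15 settings in sample 1 and 8 of 13 in sample 2, and the 58 kb upstream region under 12 of 15 and 11 of 13. The 4 kb region was called under 14 of 15 settings in sample 1 and, although not called in sample 2 at the setting reported, under 7 of 13 there. The 76 kb region was called under 6 of 15 and 0 of 13. Without lane 8, the lane with more reads, the 4 kb, 58 kb upstream, 76 kb and 110 kb regions were no longer called in sample 1. Their best windows then had 11.1-fold, 22.2-fold, 13.3-fold and 18.8-fold in that order, against 11.4-fold, 11.1-fold, 8.89-fold and 19.3-fold with both lanes. The adjusted p at the 110 kb region was then 0.00555 (exact Poisson test), so its window met both limits. It was not called because it lacked the 20% of reads on each strand that a region also needs. The 24 kb region was still called, at 23.7-fold.

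**Figure D5:**
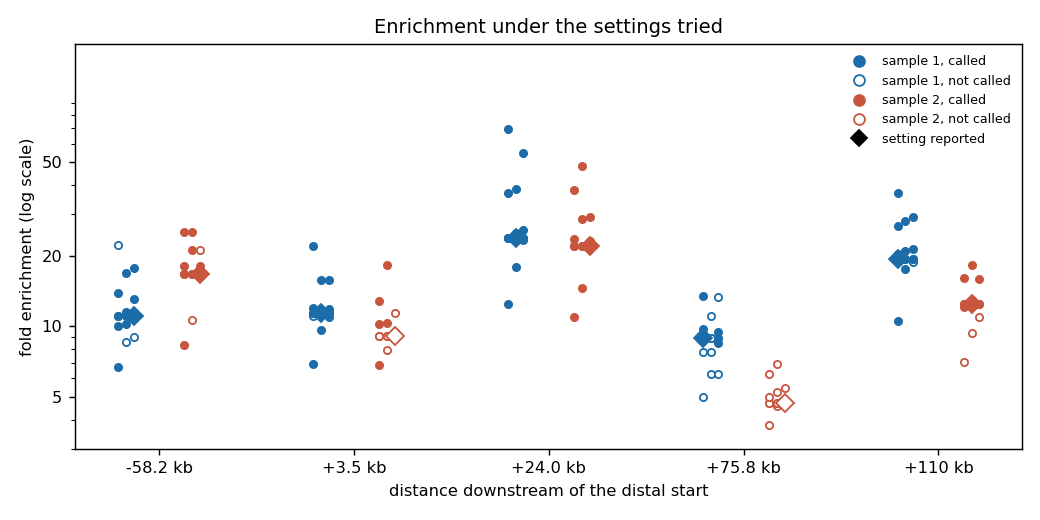
Fold enrichment of the best window (y axis, log scale) at each Runx1 region under each setting tried, sample 1 blue and sample 2 red; diamonds are the setting reported, filled symbols were called and open ones were not. All symbols at 24 kb are filled, and all of sample 2 at 75.8 kb are open.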

How the data were processed

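Scl ChIP reads of 2 samples were used as the authors deposited them. The text deposited with them gives build mm9 and the Solexa software for sample 1, and mm8 and Eland for sample 2, with no versions. The deposited sample 1 file gives each read a score, and 45 minus the score was taken as its mismatches. Poorly read, unmatched and multiply matched reads of sample 2 were not used here.

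Distinct 5′ ends were moved by 0.5 of the fragment length (119 bp) and counted in 200 bp windows in steps of 50 bp. A one-sided exact Poisson test was run on each window with reads. The expected count came from the 10 kb around it, the window's own reads included. Where the genome average over 1.9e9 bp was higher, that average was taken. Benjamini-Hochberg adjustment ran over all 14850712 and 12361136 windows. Passing windows within 200 bp were merged. Strand distances use ends within 300 bp of the summit. Offsets between the builds were searched at 44 anchors, and 34 passed, which took 4 or more ends at the same base and a lead of 1.5 times over the runner-up. Listed Eland errors were read in plus-strand order: on overlapping reads 3.02% of positions disagreed before and 0% after they were replaced. Regions named were all those called in either sample, then places with an unadjusted p under 0.001 in both, of which there were none. The code was tested on simulated data. The gene, motifs and settings were chosen with earlier results of these data known. Python 3.11.15, numpy 2.4.6 and scipy 1.17.1 were used.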

Additional observations from a re-analysis of the deposited data

How the results depend on the processing

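The 24 kb region was called under each setting tried, and its mean fold over both samples, 22.9, was 21.9 without sample 1 and 23.8 without sample 2. That mean was 58.6 against the genome average alone, 32.9 against 50 kb, 46.4 against 10 kb without the 1 kb each side, 33.8 and 11.7 in windows of 100 and 400 bp, 24.7 with all reads counted and 16.2 with reads not moved. The number of regions at the locus moved more. In sample 1 the 5 regions became 10 against the genome average alone, 3 with reads without mismatch, 3 without lane 7 and 1 without lane 8. In sample 2 the 3 regions became 6 against the genome average alone, 1 in windows of 100 bp, 5 with all reads counted, 1 with reads not moved, 5 at an adjusted p under 0.05 and 3-fold, and 7 when only windows with at least 3 reads entered the adjustment. The cause was not tested. Calls over the genome ranged from 412 to 25518 in sample 1 and from 561 to 8628 in sample 2 across settings. Settings chosen after seeing the data were a fragment length of 140 bp, with 4 and 2 regions at the locus, and adjustment over all windows of the genome, with 4 and 3 (1612 and 838 over the genome). Within 50 bp in place of 100 bp of the mm8 summits the E-boxes went from 4 to 1 and the other motif counts were the same. The GATA count within 50 bp depends on using the sample 2 summit at the 110 kb region. No direction reversed. No paired analysis was possible because there is 1 group. The weaker regions rest on 5 to 24 reads, and how far depth sets their calls was not tested.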
